A study of Mus musculus with 8 samples.

Results

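The genes described here are 7 genes of the cell cycle barrier to the conversion of fibroblasts into pluripotent cells: Cdkn2a, Cdkn2b, Cdkn1a, Cdkn1b, Cdkn1c and Trp53, whose products restrain the cycle, and Mdm2, whose product lifts the p53 restraint. They stand among 21938 protein-coding genes annotated in the mouse genome. They were chosen by name for these roles. A peak was assigned to a gene when its summit, the position of highest signal, lay in the gene body or within 50 kb of the gene's first transcription start site. Cdkn2a and Cdkn2b are neighbours with overlapping windows, so the 7 genes form 6 loci. In all, 299 of 661009 summits from 8 libraries fell in these windows.

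Reprogramming asks a fibroblast to divide many times, and most of these genes act as brakes on that division, with Mdm2 releasing one of them. Cdkn2a encodes p16Ink4a and, from an upstream first exon read in another frame, p19Arf. p16Ink4a and p15Ink4b, the product of Cdkn2b, inhibit CDK4 and CDK6 and keep the retinoblastoma protein active, while p19Arf holds MDM2 away from p53. Trp53 encodes p53, which induces Cdkn1a, Mdm2 and many other genes, and MDM2 is the ubiquitin ligase that marks p53 for degradation. Cdkn1a, Cdkn1b and Cdkn1c encode p21, p27 and p57, the inhibitors that bind complexes of cyclin and CDK. Loss of the Ink4/Arf locus or of p53 is known to raise the yield of induced pluripotent stem cells.

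The data were CUT&Tag peak lists from mouse embryonic fibroblasts (MEFs) carrying a Flag-tagged factor. In this assay an antibody, here against Flag, directs the Tn5 transposase to chromatin around the tagged protein. Per the study's methods the MEFs came from embryos of OG2 x 129 crosses, which carry an Oct4-GFP reporter, factors were delivered with pMXs retroviruses, and day 0 followed infection; the libraries stand for day 3. The 4 native groups carried Nanog, Oct4, Sox2 or Nr5a2. The 4 fusion groups carried NanogBiD, Oct4BiD, Sox2BiD or Nr5a2BiD, in which the factor follows a stretch of SS18 that contacts BRG1, the motor subunit of the BAF remodelling complex. Each group held 1 library, the labels do not say which untagged factors shared the cells, and no library without a tagged factor was analysed here. Retroviral infection gives a mixed population of cells, so each list is an average over them.

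The lists held from 54794 peaks in native Oct4 to 120594 in Sox2BiD. The lists themselves hold no read totals. The study's reporting summary states the read pairs of each library, and list length did not follow them: native Sox2 had the most pairs, and for Oct4, Sox2 and Nr5a2 the form with the shorter list had more pairs than the other form. Among 10 fibroblast markers, between 7 and 10 had a summit within 2 kb of a start site in each library, and Col3a1, Vim, Col1a2 and Twist1 had one in all 8. Of 7 pluripotency markers, between 0 and 1 did, and Nanog, Pou5f1, Esrrb, Dppa5a, Zfp42 and Dppa4 had none in any library. Between 0 and 2 of 4 immune markers had one, and between 0 and 3 each of 3 endothelial and 3 epithelial markers, with both counts of 3 in native Nr5a2. The part of other cells in the peaks below was not tested. Native Sox2 stood apart with the lowest share of peaks at start sites, 14.9% against 17.5% to 23.6% in the other libraries. The total of promoter summits and the number of regions in all libraries are also given without it. Other counts, such as those of the gene lists, are given only with it.

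Peaks of every factor occurred around the barrier genes. The windows held 34 native Nanog summits against 37 for NanogBiD. Oct4 gave 25 in its native form and 49 as Oct4BiD. Native Sox2 gave 15 where Sox2BiD gave 46, whereas Nr5a2 gave 58 in its native form and only 35 as Nr5a2BiD. Native Nr5a2 was therefore the highest library and native Sox2 the lowest. Relative to list length this was 4.63 and 4.88 summits per 10000 peaks in the native and BiD lists of Nanog. The same pair of values was 4.56 and 5.21 with Oct4, 2.58 and 3.81 with Sox2, 5.37 and 4.59 with Nr5a2. The exact 95% Poisson interval was 1.44 to 4.25 per 10000 for native Sox2 and 4.08 to 6.94 for native Nr5a2. These intervals cover counting error only, and they overlapped.

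The loci did not contribute equally. Summed over the 8 libraries, Mdm2 had 61 summits, Cdkn1b 60, Cdkn2a with Cdkn2b 58, Trp53 50, Cdkn1a 49 and Cdkn1c 21. The median over all protein-coding genes was 40, and that over the 7 genes, each with its own window, was 50. Cdkn1c was the locus with the fewest: it had 1 summit in each Nanog library, 2 in native Oct4, 4 in Oct4BiD, none in native Sox2, 3 in Sox2BiD, 7 in native Nr5a2 and 3 in Nr5a2BiD. Native Sox2 also had no summit around Cdkn1b, while 22.5% of protein-coding genes had none in that library. The plot of summits per library shows how each total divides among the loci.

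**Figure D1:**
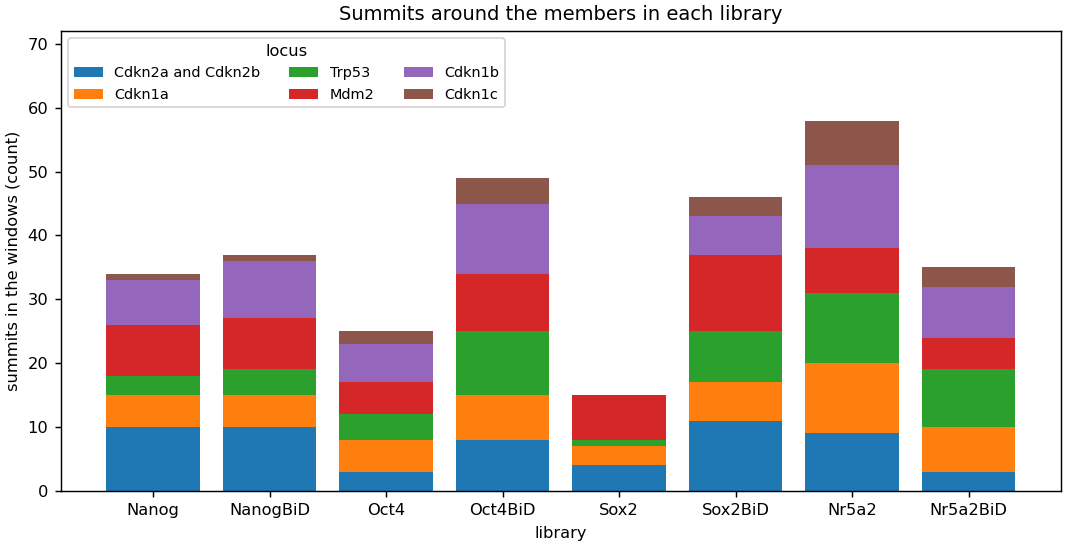
Number of peak summits (vertical axis) in the windows of the 6 loci in each of the 8 libraries (horizontal axis), 1 library per group, stacked by locus. Totals run from 15 in native Sox2 to 58 in native Nr5a2, and Cdkn1b and Cdkn1c are absent from native Sox2.

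The comparison of BiD with native forms asked whether fusion to the BRG1-binding domain went with a different number of peaks at these genes. For Oct4 and for Sox2 all 7 genes had more summits in the BiD library than in the native library, and for Nr5a2 all 7 had fewer. For Nanog 2 of 7 had more. Over all protein-coding genes, 74.6% had more summits in Oct4BiD than in native Oct4, 83.6% had more in Sox2BiD than in native Sox2, 74% had fewer in Nr5a2BiD than in native Nr5a2, and 44.6% had more in NanogBiD than in native Nanog. For Oct4, Sox2 and Nr5a2 the direction at the 7 genes was that of most genes, and the list lengths differed in the same directions.

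After scaling to list length, the log2 ratio of BiD over native was 0.08 for Nanog (95% counting interval -0.63 to 0.79), 0.19 for Oct4 (-0.53 to 0.95), 0.56 for Sox2 (-0.30 to 1.51) and -0.23 for Nr5a2 (-0.87 to 0.40). The mean over the 4 factors was 0.15 ± 0.33 (SD, n = 4), and the exact two-sided sign-flip permutation test gave p = 0.5. Without Sox2 the mean was 0.01, and in the 20000 highest-scoring peaks of each library it was -0.08. With 4 factors the smallest p this test can give is 0.13, so no call was possible. The plot of the ratios shows that each interval spans 0.

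**Figure D2:**
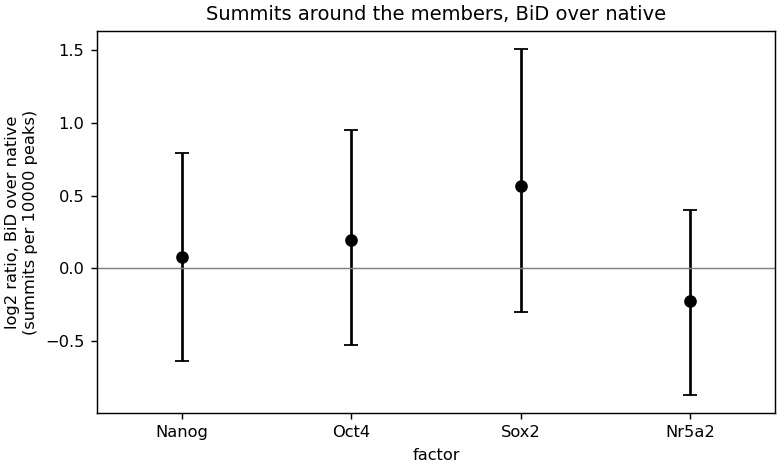
Log2 ratio of BiD over native summits per 10000 peaks in the windows (vertical axis) for each factor (horizontal axis), 1 library per form. Points are the ratios and bars the 95% counting intervals, each of which crosses 0. Nr5a2 is the only point below 0.

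Most summits lay away from the barrier genes' own promoters. Of the 299, 60 (20.1%) lay within 2 kb of a start site of 1 of the 7 genes and 71 (23.7%) within 2 kb of a start of another gene. A further 14 (4.68%) lay elsewhere in the body of a barrier gene, 68 (22.7%) in the body of another gene and 86 (28.8%) between genes. The share within 2 kb of any start site was 58.8% for native Nanog beside 48.6% for NanogBiD, and stood at 48% for native Oct4 beside 40.8% for Oct4BiD. The Sox2 forms had 40% (native) and 43.5% (BiD), the Nr5a2 forms 37.9% and 37.1%. In the complete lists these shares were between 14.9% and 23.6%, but windows placed around genes hold start sites by construction. The BiD minus native difference averaged -3.67 ± 6.17 percentage points (SD, n = 4 factors; exact two-sided sign-flip permutation test, p = 0.375).

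**Figure D3:**
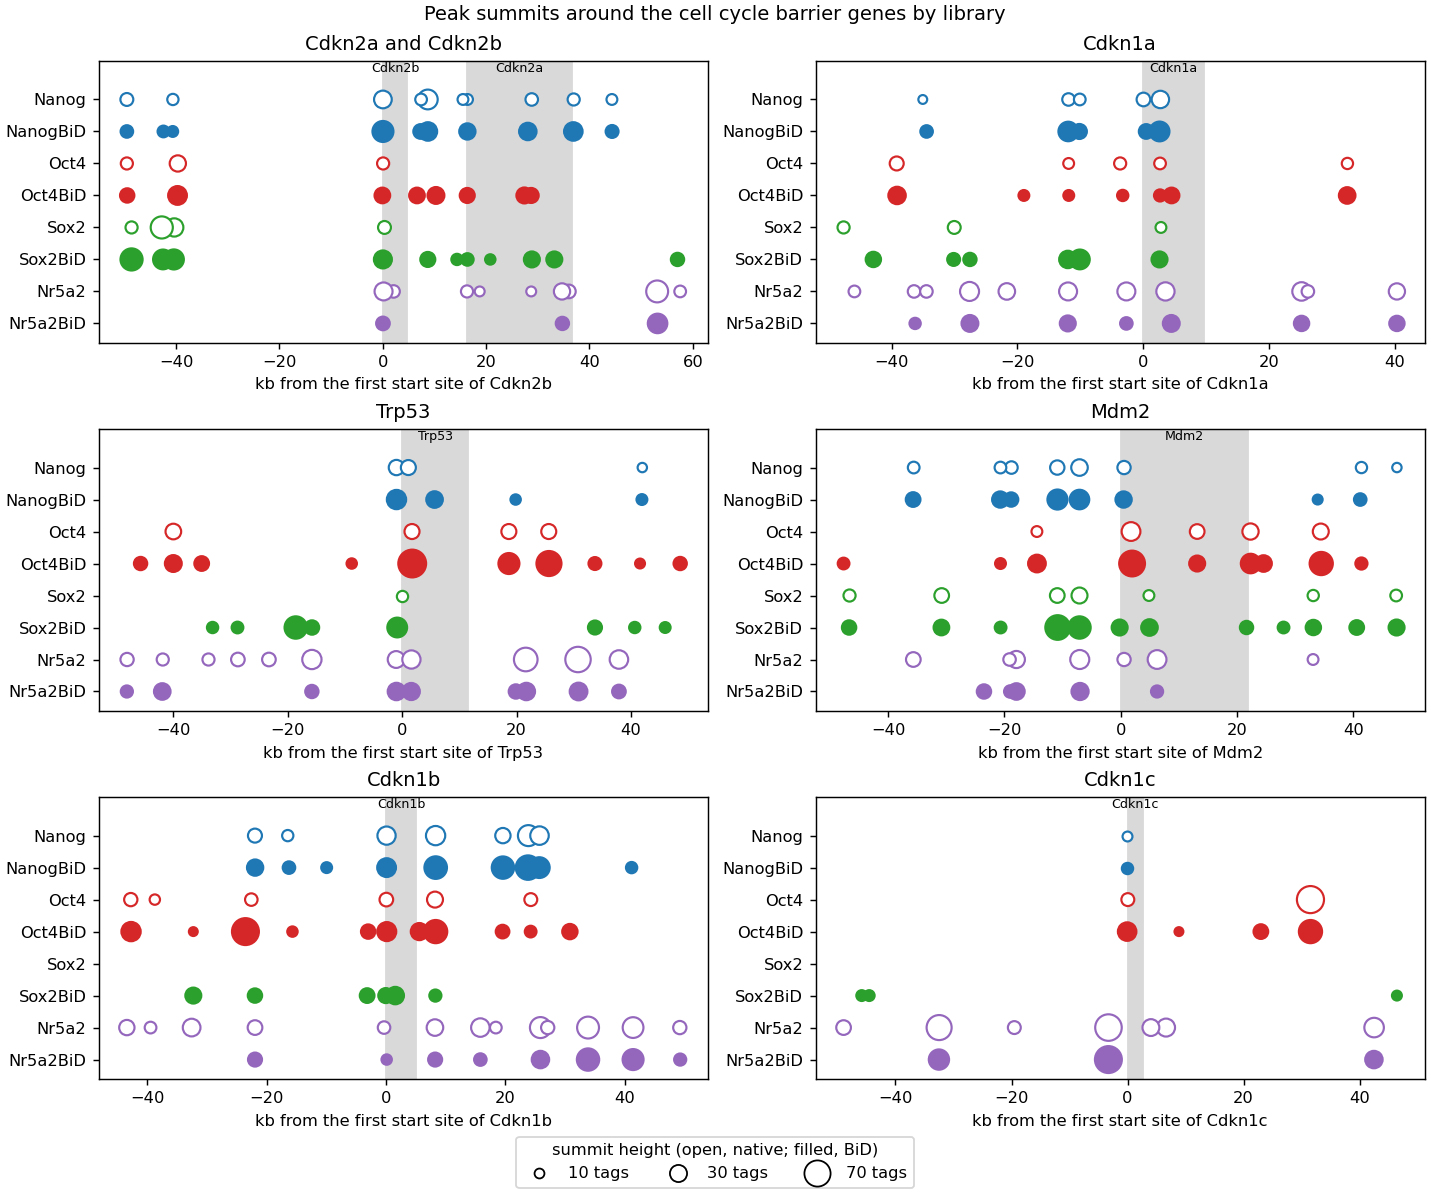
Position of each summit relative to the first start site of the gene named on the horizontal axis (kb, downstream positive), with 1 row per library. Open circles are native forms, filled circles BiD forms, circle area is proportional to summit height in tags, and grey bands are gene bodies. Summits of the Nanog, Oct4 and Sox2 libraries stand between 39.6 and 49.5 kb upstream of Cdkn2b, and the tallest summits at Cdkn1c are those of both Nr5a2 libraries 3.29 and 3.30 kb upstream and of native Oct4 31.5 kb downstream.

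Promoters of the barrier genes carried peaks in most libraries. A summit lay within 2 kb of a start site in 7 of 7 genes in native Nanog (51.2% of protein-coding genes), 7 with NanogBiD (54.5%), 6 with native Oct4 (39%) and 7 with Oct4BiD (55.9%). With native Sox2 the count was 3 of 7 (25.2%), with Sox2BiD 6 (53.4%), with native Nr5a2 6 (63.5%) and with Nr5a2BiD 4 (54%). Over genes and libraries together this was 46 of 56 (82.1%), against 49.6% for all protein-coding genes, and without native Sox2 the count was 43. Cdkn2b, Cdkn1a and Trp53 had a promoter summit in all 8 libraries, as did 17.2% of protein-coding genes. Cdkn1b had one in 7 libraries, Mdm2 in 6, Cdkn2a in 5 and Cdkn1c in 4. The background includes genes that fibroblasts do not express, and the part of expression level in these shares was not tested.

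**Figure D4:**
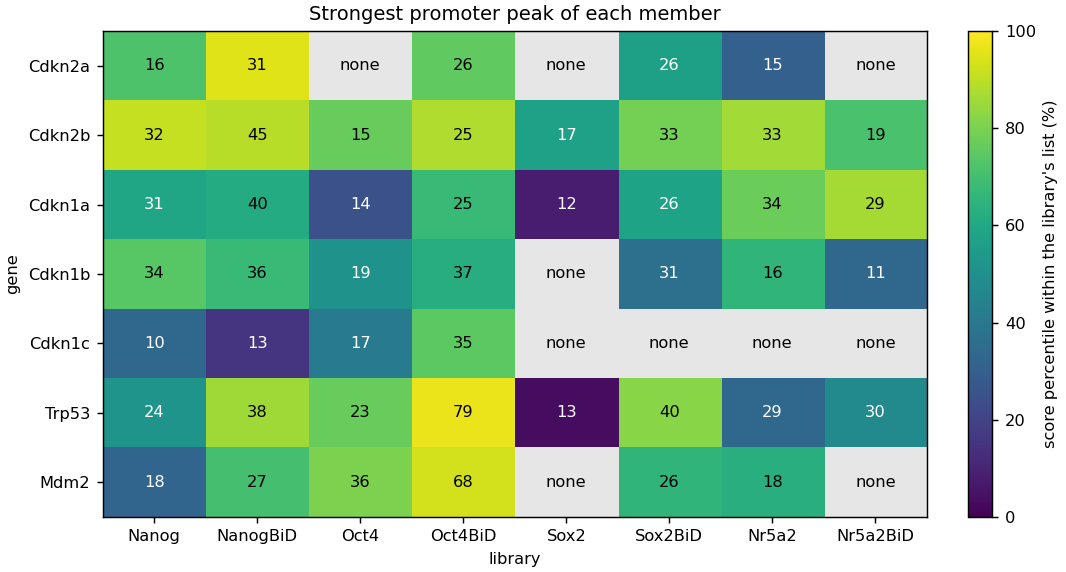
Strongest peak within 2 kb of a start site for each gene (rows) in each library (columns), 1 library per group. Colour is the percentile of the peak's score within its own list, numbers are summit heights in tags, and grey squares marked none have no such peak. The highest percentile is that of Trp53 in Oct4BiD (97.2), and 4 squares of Cdkn1c and 4 of native Sox2 are empty.

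The Ink4/Arf locus carried its most regular peak at the Cdkn2b promoter. The height of that peak, in tags at the summit and not scaled to depth, was 32 for native Nanog, 45 for NanogBiD, 15 for native Oct4 and 25 for Oct4BiD. It was 17 in native Sox2, 33 in Sox2BiD, 33 in native Nr5a2 and 19 in Nr5a2BiD. The score of the peak, -10 log10 of the caller's p-value, ranked between percentiles 57.1 and 91.3 of each list, a narrower range than at Cdkn1a (8.10 to 86.6) or Trp53 (3.51 to 97.2). The merged region spanned chr4:89309661-89311874 over the start of Cdkn2b at 89311039, and its summits lay from 71 bp upstream to 341 bp downstream. The stretch upstream of that start is shown because it lies within the region common to the 8 libraries (GRCm38.p6, minus strand, from RefSeq, with exonic bases left out). It held no match to the searched motifs, so nothing in it is in capitals.
Cdkn2b upstream, chr4:89311040-89311282: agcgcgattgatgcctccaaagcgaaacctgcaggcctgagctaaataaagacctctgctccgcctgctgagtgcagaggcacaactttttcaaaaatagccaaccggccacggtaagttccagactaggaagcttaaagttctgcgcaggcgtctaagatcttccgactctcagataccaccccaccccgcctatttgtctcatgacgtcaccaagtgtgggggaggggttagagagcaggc

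Cdkn2a was marked in fewer libraries. Its 2 starts, 12461 bp apart, are those of p19Arf (89294653) and p16Ink4a (89282192), and each had a summit within 2 kb in the same 5 libraries, namely both Nanog libraries, Oct4BiD, Sox2BiD and native Nr5a2. At the p19Arf start the highest peak reached 12 tags in native Nanog, 27 in NanogBiD, 23 in Oct4BiD, 16 in Sox2BiD and 15 in native Nr5a2. Around the p16Ink4a start the heights were 16, 31, 26, 26 and 10 in the same order. The NanogBiD peak there, 507 in score (percentile 95), was the highest-scoring NanogBiD peak in any of the windows. Native Oct4, native Sox2 and Nr5a2BiD, the libraries without a summit at either start, were in each case the form of their factor with the shorter list.

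Distal peaks of the locus differed between factors. Upstream of Cdkn2b, a pair of regions at chr4:89350090-89352168 and chr4:89359320-89360891 had peaks in both forms of Nanog, Oct4 and Sox2 and in neither Nr5a2 library. The peak intervals overlapped, but the summits spanned 989 and 914 bp. In the first region the Oct4 summits stood apart from those of Nanog and Sox2. In the second the Sox2 summits stood apart from those of Nanog and Oct4. The heights at the first were 13 and 12 for Nanog and NanogBiD, 27 and 36 for Oct4 and Oct4BiD, and 34 and 41 for Sox2 and Sox2BiD. Between them, a region at chr4:89352954-89354429 held the highest score of the locus, 569 in native Sox2 with a height of 50, beside 40 tags in Sox2BiD and 14 in NanogBiD. This native Sox2 peak ranked at percentile 96.2 of its list, whereas the other 14 native Sox2 summits in the windows ranked at 68.9 or below. Its summit and the 50 bases to either side are shown because they carry the strongest native Sox2 site near a barrier gene (mm10, plus strand). They held no match to CCATTGTT, the SOX sequence searched, or to the other motifs.
Cdkn2b upstream Sox2 site, chr4:89353738-89353838: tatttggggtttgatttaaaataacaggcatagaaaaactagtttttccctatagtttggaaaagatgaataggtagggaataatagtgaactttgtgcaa

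Both Nr5a2 libraries had instead a peak 36.7 kb (native Nr5a2) and 36.8 kb (Nr5a2BiD) downstream of the p19Arf start, in the noncoding gene Gm12606, with heights of 49 and 39. No other library had a summit in that region.

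Cdkn1a, the p53 target that encodes p21, had its common peak at an internal promoter. Within 2 kb of the first start at 29090976, only native Nanog and NanogBiD had a summit, at 19 and 22 tags and at percentiles 2.63 and 2.82. Within 2 kb of the start 2793 bp further on, at 29093769, all 8 libraries had one. The native forms of Nanog, Oct4, Sox2 and Nr5a2 had heights of 31, 14, 12 and 34 there, and the BiD forms 40, 25, 26 and 29. The summits did not coincide: those of Nanog, native Oct4, Sox2 and the weaker of a pair in Oct4BiD lay 2.61 to 2.84 kb from the first start, that of native Nr5a2 at 3.55 kb, and those of Nr5a2BiD and the stronger Oct4BiD peak at 4.48 and 4.53 kb. They form 1 region only because the peak intervals overlap, at chr17:29092291-29096074. The bases around the Nr5a2BiD summit, the highest score of the region, are intronic and are shown for that reason (mm10, plus strand, no motif match). This summit lay 1676 bp from the nearest Cdkn1a start and 996 bp from the annotated start of another gene.
Cdkn1a internal promoter, Nr5a2BiD summit, chr17:29095407-29095507: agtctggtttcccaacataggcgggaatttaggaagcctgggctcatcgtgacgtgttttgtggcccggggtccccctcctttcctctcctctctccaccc

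Upstream of Cdkn1a, the start of Trp53cor1, the lincRNA-p21 gene that p53 also induces, had a summit in 7 libraries, all but native Sox2. The heights were 16 for native Nanog, 39 for NanogBiD, 12 for native Oct4, 12 for Oct4BiD, 31 for Sox2BiD, 33 for native Nr5a2 and 26 for Nr5a2BiD, at 11.8 to 12 kb upstream of the first Cdkn1a start. The native Nr5a2 peak, at 360 in score (percentile 88.3), was the highest of the Cdkn1a windows. Oct4 differed little between forms here, at 12 tags in each. The 7 summits spanned 155 bp, and the bases at the native Nr5a2 summit are shown as the highest score of this window (mm10, plus strand, no motif match).
Trp53cor1 start, chr17:29078998-29079098: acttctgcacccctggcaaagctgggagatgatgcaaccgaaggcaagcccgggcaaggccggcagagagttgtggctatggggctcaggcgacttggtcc

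At Trp53 the peaks of different factors met around 1 promoter without sharing a summit. In the region chr11:69578778-69583060, which spans the start at 69580359, native Nanog, NanogBiD, Sox2BiD, native Nr5a2 and Nr5a2BiD had a summit 0.865 to 1.05 kb upstream, on the side of Wrap53, the gene that runs in the opposite direction. Their heights were 24, 38, 40, 29 and 31. Native Oct4, Oct4BiD and again both Nr5a2 libraries had one 1.59 to 1.76 kb downstream, in an intron, at heights of 23, 79, 34 and 30. A further native Nanog summit of 23 tags, near its upstream 24, lay 1.08 kb downstream. Native Sox2 had a single low summit 68 bp upstream, of 13 tags and at percentile 3.51 of its list. Thus no Oct4 summit stood on the upstream side and no Sox2 summit in the intron.

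The intronic Oct4BiD peak at Trp53 was the tallest of the 299, with 79 tags and a score of 609 (percentile 97.2). The native Oct4 peak at the same place was at 187 in score (percentile 76.6). Further downstream the 2 Oct4 libraries again peaked together, at 18.7 kb with 23 and 45 tags and at 25.6 and 25.7 kb with 23 and 64 tags, for the native and the BiD form. Native Nr5a2 and Nr5a2BiD peaked between those sites with 57 and 31 tags, and at 30.8 and 30.9 kb with 66 and 32. The Nr5a2 order was thus the reverse of the Oct4 order, with the native form the taller. Shown are the intronic bases at the Oct4BiD summit, which held no octamer ATGCAAAT within 50 bp (mm10, plus strand), and the upstream stretch of the promoter (GRCm38.p6, plus strand, from RefSeq, exonic bases left out), which held no match either. An octamer did lie within 50 bp of the intronic summits of native Nr5a2 and Nr5a2BiD in the same region.
Trp53 intron, Oct4BiD summit, chr11:69582067-69582167: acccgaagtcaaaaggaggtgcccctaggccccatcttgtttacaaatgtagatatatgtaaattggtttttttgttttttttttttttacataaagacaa
Trp53 upstream, chr11:69580256-69580358: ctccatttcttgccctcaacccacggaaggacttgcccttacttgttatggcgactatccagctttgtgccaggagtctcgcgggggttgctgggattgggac

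Mdm2, the gene for the ligase that degrades p53, had promoter summits in 6 libraries. It has a second promoter within its first intron that p53 drives, and apart from 1 start 19238 bp downstream, the annotated starts lay within 736 bp of the first at 117710758. The summits of native Nanog (18 tags), NanogBiD (27) and native Nr5a2 (18) lay 479 to 559 bp downstream of the first start. That of Sox2BiD (26) lay 199 bp upstream. Those of native Oct4 (36) and Oct4BiD (68) lay 1.76 and 1.94 kb downstream. Native Sox2 and Nr5a2BiD had none. As at Trp53, the Oct4 summits were, among summits within 2 kb of a start, those furthest into the gene. The Oct4BiD peak was the tallest of the promoter (percentile 93.1). Beyond the promoter of Trp53, NanogBiD had a summit of 28 tags 5.67 kb downstream.

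Of the Mdm2 regions with peaks in 6 libraries, the one with the closest summits was distal. At 7.01 to 7.11 kb upstream, in chr10:117717224-117718939, native Nanog had 28 tags, NanogBiD 39, native Sox2 26, Sox2BiD 51, native Nr5a2 37 and Nr5a2BiD 30, and the 6 summits spanned 98 bp. Neither Oct4 library had a peak there. Both Oct4 forms and no other library peaked 14.4 kb upstream and, within the gene, 13.1 kb downstream (22 and 26 tags). At 22.3 kb downstream they had 27 and 39 tags, in a region where Sox2BiD also had 18. At the start of Cpm, which encodes carboxypeptidase M, Oct4BiD reached 55 tags and a score of 471 and native Oct4 26 tags, while native Sox2, Sox2BiD, NanogBiD and native Nr5a2 had lower peaks of 10 to 24 tags in that region. The first sequence shows the shared upstream site and the second the Oct4BiD summit at Cpm, where capitals mark the AP-1 sequence TGAGTCA (mm10, plus strand).
Mdm2 upstream shared site, chr10:117717811-117717911: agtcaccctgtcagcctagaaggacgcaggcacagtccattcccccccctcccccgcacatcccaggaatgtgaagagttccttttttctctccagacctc
Cpm start, Oct4BiD summit, chr10:117676244-117676344: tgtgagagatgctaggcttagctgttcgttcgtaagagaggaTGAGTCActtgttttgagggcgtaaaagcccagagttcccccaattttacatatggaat

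Cdkn1b, the gene for p27, had a promoter peak in every library but native Sox2. Its height was 34 for native Nanog, 36 for NanogBiD, 19 for native Oct4, 37 for Oct4BiD, 31 for Sox2BiD, 16 for native Nr5a2 and 11 for Nr5a2BiD. The Sox2BiD summit of 31 tags lay 1.55 kb downstream of the first start, and another of 23 tags lay 35 bp upstream. Those of the other libraries lay at most 327 bp from that start. The Nr5a2 libraries were the lowest of the 7. Downstream, the start of the noncoding gene Lockd was shared by the same 7 libraries, 8.21 to 8.33 kb from the Cdkn1b start, with 38, 52, 26, 55, 15, 28 and 20 tags in the same order. Deletion of the Lockd promoter is known to lower Cdkn1b expression. The body of Lockd then held peaks of single factors or pairs of factors. Native Nanog and NanogBiD peaked at 23.9 and 23.8 kb (45 and 61 tags), in a region where native Oct4 and Oct4BiD had 17 and 14. Both Nr5a2 libraries peaked at 33.9 kb (49 and 51 tags). By the lower of the 2 scores, that Nr5a2 region is the highest in the windows that both Nr5a2 forms and no other library held. Its bases are shown (mm10, plus strand, no match to either NR5A sequence).
Lockd body, native Nr5a2 summit, chr6:134954222-134954322: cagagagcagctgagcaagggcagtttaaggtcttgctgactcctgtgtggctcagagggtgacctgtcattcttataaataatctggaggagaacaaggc

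The highest score of all 299 peaks was at the start of Gpr19, an orphan receptor gene 23.6 kb upstream of Cdkn1b. It was 882 in Oct4BiD, with 74 tags, rank 331 of the 93978 peaks in that list (percentile 99.6). Native Oct4 had 16 tags and a score of 190 about 1 kb away. The other 5 libraries of the region, native Nanog, NanogBiD, Sox2BiD, native Nr5a2 and Nr5a2BiD, had their summits 21.9 to 22.0 kb upstream of Cdkn1b at 20, 27, 21, 22 and 20 tags. An octamer lay 4 bp from the Oct4BiD summit, and of the 3 Oct4 or Oct4BiD summits with an octamer this was the only one above percentile 65.

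Cdkn1c, the imprinted gene for p57, was the least marked. Only native Nanog (10 tags), NanogBiD (13), native Oct4 (17) and Oct4BiD (35) had a promoter summit, from 48 bp downstream to 114 bp upstream of the start at 143461050. Both Nr5a2 libraries lacked that peak and had instead summits 3.29 and 3.30 kb upstream, in chr7:143461984-143465396, at 72 tags in native Nr5a2 and 74 in Nr5a2BiD. No other library had a peak there. Farther upstream, in an intron of Slc22a18, an imprinted transporter gene, native Nr5a2 reached 64 tags and a score of 634 (percentile 98.0) and Nr5a2BiD 42 tags. Downstream, both Oct4 libraries had a peak at 31.5 kb with 75 tags in native Oct4 and 55 in Oct4BiD. This was the tallest peak of a native library in the windows, and at this site, unlike at the promoters of Trp53, Mdm2 and Cdkn1b, the native Oct4 form was the taller. The bases at the Slc22a18 and Oct4 sites are shown as the strongest sites of a single factor near Cdkn1c, with the NR5A sequence CAAGGCCA in capitals (mm10, plus strand). The Oct4 sequence ends in a run of short repeats.
Slc22a18 intron, native Nr5a2 summit, chr7:143493478-143493578: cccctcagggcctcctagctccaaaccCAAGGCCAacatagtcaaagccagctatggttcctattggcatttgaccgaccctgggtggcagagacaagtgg
Cdkn1c downstream, native Oct4 summit, chr7:143429471-143429571: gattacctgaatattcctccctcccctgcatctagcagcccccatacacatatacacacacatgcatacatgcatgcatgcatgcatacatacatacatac

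The searched sequences of the factors were rare at these summits. The search covered 50 bp either side of each summit on both strands for GCCATTA (NANOG), ATGCAAAT (octamer, Oct4), CCATTGTT (SOX), CAAGGTCA or CAAGGCCA (NR5A), and TGAGTCA or its complement (AP-1). The library's own motif was found at 9 of 58 native Nr5a2 summits (15.5%, exact 95% binomial interval 7.35% to 27.4%), against 16.3% of all native Nr5a2 peaks. It was found at 2 of 35 Nr5a2BiD summits (5.71%, interval 0.70% to 19.2%, against 12.7%). For native Oct4 it was 1 of 25 (4%, 0.10% to 20.4%, against 4.17%), and for Oct4BiD 2 of 49 (4.08%, 0.50% to 14.0%, against 9.72%). Each of these intervals included the share of all peaks. None of 34 native Nanog, 37 NanogBiD, 15 native Sox2 or 46 Sox2BiD summits held the library's own motif. This allows shares of up to 8.82%, 8.11%, 20% and 6.52%, and the shares of all peaks were 1.70%, 2.55%, 1.90% and 3.29%. A count of 0 thus lies within what these numbers of summits allow. Of the RefSeq promoter windows, 8 matched 6 of the 7 genes (all but Cdkn1c) and none of these held a match, while 1.05% (SOX) to 5.20% (AP-1) of 32851 mouse promoter windows of the same length did.

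The 14 summits with their own motif reduce to 12 sites, of which 9 lie outside promoters. They are shown with 30 bases each because they are the places where a factor's sequence and its peak coincide, and they were chosen after the search was seen. Capitals mark the motif, all lines are the mm10 plus strand, and TGACCTTG and TGGCCTTG are the NR5A sequences read on the other strand. The first 3 are octamers of Oct4 libraries and the rest NR5A sequences of Nr5a2 libraries.
Gpr19 start, Oct4BiD, chr6:134896832-134896861: acaagggtcatATGCAAATagtatacctca
Cpm start, native Oct4, chr10:117676337-117676366: tatggaatgatATGCAAATctggcaaaaag
Dnah2 body, Oct4BiD, chr11:69534611-69534640: aaatgtaagcaATGCAAATgcactttagtc
Shbg promoter, both Nr5a2 libraries, chr11:69618278-69618307: ttgtgcttcagTGACCTTGtccgttaaaag
Mdm2 upstream, both Nr5a2 libraries, chr10:117728708-117728737: cctcatggtggTGGCCTTGtagggcttctc
Cdkn2a body, native Nr5a2, chr4:89292230-89292259: atagcgcaggaTGACCTTGaattccataca
Gpr19 body, native Nr5a2, chr6:134876945-134876974: tcaggaagatcTGGCCTTGgatcgccctct
Lockd body, native Nr5a2, chr6:134938765-134938794: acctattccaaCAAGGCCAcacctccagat
Cdkn1b downstream, native Nr5a2, chr6:134969623-134969652: gatctgaagttCAAGGCCAccctctactac
Cdkn1c downstream, native Nr5a2, chr7:143456974-143457003: aaacttgttccCAAGGTCAagcaggcctga
Slc22a18 intron, native Nr5a2, chr7:143493494-143493523: agctccaaaccCAAGGCCAacatagtcaaa
Cdkn1c upstream, native Nr5a2, chr7:143509965-143509994: tctgtcaggtcCAAGGCCAagcccgaggta

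The scores at these sites spanned the lists, from percentile 3.94 in the body of Lockd to percentile 99.6 at the start of Gpr19. The motif lay between 2 and 36 bp from its summit. At Cpm the native Oct4 summit held the octamer, and the Oct4BiD summit, 76 bp away and higher, held the AP-1 sequence. That octamer, at chr10:117676348-117676355, also lay inside the Oct4BiD peak, just beyond the 50 bp searched around its summit. The 2 forms are therefore not told apart by these motifs. The Shbg and Mdm2 sites had a peak in both forms, with 35 and 19 tags at Shbg and 30 and 28 at Mdm2 for native Nr5a2 and Nr5a2BiD.

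Merging peaks that overlapped by at least 1 bp gave 114 regions around the barrier genes, of 306466 in all. Of these, 40 (35.1%) had a peak in 1 library, against 46.0% of all regions, and 23 (20.2%) had one in at least 4 libraries, against 15.0%. The 31 regions within 2 kb of a start site had a median of 3 libraries and the 83 others a median of 2. Of the regions in 1 library, 4 lay within 2 kb of a start site and 36 did not. Every region in 7 or 8 libraries lay within 2 kb of a start site. Windows around genes hold start sites by construction, and the shares of all regions were not matched for this. All 8 libraries shared 3 regions (2.63%, against 1.49% of all), those of Cdkn2b, Cdkn1a and Trp53, and a further 4 were shared by 7 libraries, all but native Sox2. None of the 3 persisted when summits rather than intervals had to lie within 100 bp of each other.

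**Figure D5:**
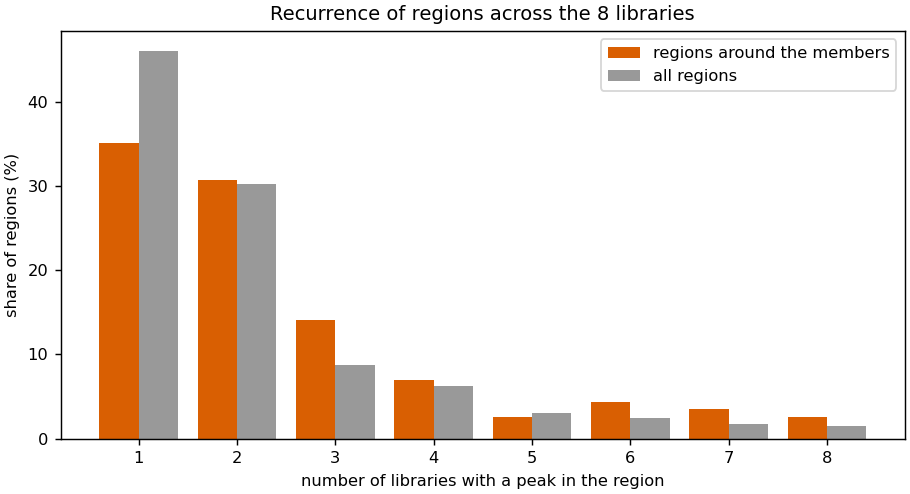
Share of regions (vertical axis, percent) by the number of libraries with a peak in the region (horizontal axis), for the 114 regions around the barrier genes and for all 306466 regions. Around the barrier genes 35.1% of regions had a peak in 1 library, against 46.0% of all, and the shares at 3 and more libraries are higher except at 5.

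Regions were shared first within a factor. Of 35 regions with peaks in exactly 2 libraries, 29 (82.9%) paired the native and BiD form of 1 factor, against 84.3% of all such regions. Nr5a2 had 16 regions held by both of its forms and no other library, Oct4 had 7, Sox2 4 and Nanog 2. Single-library regions were 13 for native Nr5a2, 12 for Oct4BiD, 11 for Sox2BiD, 2 for NanogBiD and 1 each for native Sox2 and Nr5a2BiD. Native Nr5a2, Oct4BiD and Sox2BiD also had the longest lists, at 108030, 93978 and 120594 peaks. A region with peaks in 3 or more BiD libraries and no native library did not occur, nor did the mirror case. Counts of these patterns over all regions are not given here, so they show nothing particular to the barrier genes.

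The peaks of the form with the shorter list were mostly contained in those of the other. The BiD library had a peak in 96.9% of the native Nanog regions, 95.8% of the native Oct4 and 93.3% of the native Sox2 regions, where all regions gave 72.9%, 73.4% and 86.4%. In the other direction the native library had a peak in 83.8% of the NanogBiD regions, 50% of the Oct4BiD and 31.1% of the Sox2BiD regions. All regions gave 70.4%, 42.8% and 41.9%, so that of these BiD libraries only Sox2BiD lay below its background. For Nr5a2 the BiD library had a peak in 55.4% of the native regions and the native library in 96.9% of the BiD regions. All regions of the Nr5a2 lists gave 60.9% and 86.3%.

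Genes that act beside the barrier genes were examined by promoter summits in 3 lists. Of 20 p53 targets, between 13 (native Sox2) and 19 (Oct4BiD) had one in each library, and 10 had one in all 8: Mdm4, Trp53inp1, Gadd45a, Aen, Ei24, Sesn1, Ccng1, Plk2, Rrm2b and Fas. Perp had none. Of 16 genes of the G1 to S transition, between 6 (native Sox2) and 16 (NanogBiD and Oct4BiD) had one, and Ccne1, Cdkn2d, Cdk4, E2f3 and Rb1 had one in all 8. Of 12 regulators of the Ink4/Arf locus, between 3 (native Sox2) and 11 had one, with Rnf2, Ezh2 and Ets1 in all 8 and Kdm6b in none. Of all protein-coding genes, 25.2% had one in native Sox2, 54.5% in NanogBiD, 55.9% in Oct4BiD and 17.2% in all 8 libraries. Over genes and libraries the shares of the 3 lists were 80.0%, 82.0% and 78.1%. They were close to the 82.1% of the 7 genes and above the 49.6% of all protein-coding genes. The 10 fibroblast markers, counted in the same way, had 87.5%, so a high share was not particular to these lists. The part of expression level was not tested.

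For each barrier gene, 1 gene among 17020 outside the windows had the most similar profile of summits per 10000 peaks over the 8 libraries. These were Srsf1 for Cdkn2a (Pearson r = 0.983), Sv2a for Cdkn2b (0.973), Wdr63 for Cdkn1a (0.984), Mbd3 for Trp53 (0.984), Pcnx for Mdm2 (0.989), Gpr135 for Cdkn1b (0.984) and Mapk4 for Cdkn1c (0.990). Each r is the maximum of many and is over 8 libraries that differ in list length. At Mapk4 the counts were 2 and 1 in the Nanog libraries, 3 and 6 in the Oct4, 0 and 4 in the Sox2 and 11 and 5 in the Nr5a2 libraries, native before BiD.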

How the data were processed

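The 8 peak lists and summit lists were made by the authors, for which the methods and labels name Trim Galore 0.6.4 (trimming), Bowtie2 2.4.5 (mapping, build mm10), SAMtools 1.16.1 (filtering) and MACS 1.4.2 (peak calling). No control library is named. The score, as deposited, is the caller's p-value on a scale of -10 log10, with a lowest value of 50 (p-value 1e-05). The deposited signal is the summit height in whole tags, not scaled to depth. The methods describe merging of replicates before calling, and the study's checklist says that the experiment was performed once. The lists hold no read totals. Heights and scores depend on depth and on the share of reads in peaks, so scores were ranked within a list, and nothing was scaled to the read pairs that the reporting summary states. Per the methods, repetitive and low-quality reads were removed, so sequence where reads cannot be placed uniquely may lack peaks. Simple repeats could still carry a peak, as at the Oct4 site downstream of Cdkn1c.

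Summits were assigned to genes of GENCODE M21 on GRCm38.p6, the assembly of mm10, with windows of 50 kb and promoters of 2 kb around any annotated start. All coordinates are 1-based mm10 positions. Percentiles are the share of peaks in the same list with a lower score. Regions were merged from peaks overlapping by at least 1 bp over all libraries. BiD and native forms were compared over the 4 factors with an exact two-sided sign-flip test, since each group held 1 library. Intervals of single counts and shares are exact 95% Poisson and binomial (Clopper-Pearson) intervals, and a count of 0 was given a limit of 3 counts. At the edge of the windows, 24 summits lay 45 to 50 kb from the first start and 27 lay 50 to 55 kb away.

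All 7 genes were described. The regions named were, per locus, that in most libraries and that of the highest score, and, per factor, the best region held by its 2 forms alone; other regions were named after their values were seen. The genes and lists were chosen with earlier results of these data known. Scripts used Python 3.11.15, NumPy 2.4.6, pandas 2.3.3, SciPy 1.17.1, pysam 0.24.0 and matplotlib 3.10.9 and were tested on simulated peaks. Alternatives were windows of 25 and 100 kb, promoters of 500 bp and 5 kb, a score of at least 100, the 20000 highest-scoring peaks of each library, linking of summits, unscaled counts, and leaving out factors, loci and, chosen after the data were seen, native Sox2.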

Additional observations from a re-analysis of the deposited data

Results flagged for a closer look

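The number of summits around the barrier genes per 10000 peaks was lower in Nr5a2BiD than in native Nr5a2, a log2 ratio of -0.23, while the BiD form was higher for Nanog, Oct4 and Sox2. It was picked out because 1 factor moved against the other 3 under the same contrast. The difference between factors was not tested, since each form of a factor is 1 library, and the 95% counting interval of the Nr5a2 ratio reached from -0.87 to 0.40. Nr5a2 is also the only factor whose BiD list was the shorter, with 76217 peaks against 108030.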

How the results depend on the processing

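Restriction to the 20000 highest-scoring peaks of each library turned the mean log2 ratio of BiD over native to -0.0805 and the difference in promoter share to 8.50 percentage points, and it left 13 promoter summits, 33 regions and 0 regions in all 8 libraries. A score of at least 100 turned the promoter-share difference to 2.32 percentage points and left 1 region in all 8. The other 14 alternatives kept the mean log2 ratio above 0, between 0.01 and 0.50, and the other 13 kept the share difference below 0, between -6.05 and -1.50. Without Sox2 the mean log2 ratio was 0.01, the lowest of these. The share difference without the Cdkn1b locus, -5.03, reached the smallest p that 4 factors allow (exact permutation test, 0.13), and no other alternative did. Windows of 25 and 100 kb gave 57 and 217 regions, and the wider window 9 regions in all 8 libraries. Linking summits within 100 bp gave 0 such regions, and 7 regions had a peak in every library but native Sox2 or in all 8. The count of promoter summits was between 35 and 49 under the other 5 alternatives. The labels give no replicate numbers, so the 2 forms of a factor were the only pairing. With 1 library per group, the counting intervals do not cover variation between cultures.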
